A study of Homo sapiens with 4 samples.

Results

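The 10 genes described here encode the chaperones and degradation factors of the endoplasmic reticulum (ER) and the transcription factor XBP1, and they were chosen by symbol from the 32955 genes of the table. They are HSPA5, HSP90B1, CALR, CANX, PDIA4, PDIA6, DNAJB9, HERPUD1, XBP1 and SDF2L1. All 10 were found and all 10 passed the filter on low values, a mean of at least 1 RPKM over the libraries, which 13871 genes passed. RPKM scales the reads of a gene by the length of its exons and by the depth of the library. All 10 were expressed in every library, and together they took 1.05% to 1.14% of the reads.

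RNA-seq was utilized on 4 libraries of MDA-MB-231, a triple negative and mesenchymal-like line from human breast cancer. The study's methods give DMEM or RPMI medium with fetal bovine serum for its cell lines. For 2 libraries the cells had received mimic NC, a negative control oligonucleotide, and for the other 2 they had received miR-217 mimic, which is a synthetic RNA that stands in for the microRNA miR-217. Each group holds a replicate number 1 and a replicate number 2 in the sample labels. The labels do not say what the number marks, nor whether the libraries came from separate cultures, so a p-value measures only the spread between these libraries, which may be technical. All cells were transfected with an oligonucleotide, and untransfected cells were not analysed here. The time after transfection was not given in the labels.

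When unfolded proteins build up in the ER, the sensors IRE1 (the gene ERN1), PERK (EIF2AK3) and ATF6 start the unfolded protein response. ATF6 and the spliced form of XBP1 raise the transcription of chaperones such as HSPA5, whereas PERK phosphorylates a translation initiation factor and thereby favours translation of the transcription factor ATF4. A shortage of amino acids also leads to ATF4, through the kinase GCN2 and without the ER sensors, and the ER chaperones are therefore commonly read beside the ATF4 targets to tell ER stress from an amino acid response.

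The recovered read totals were 57933183 and 47374957 for mimic NC 1 and 2, and 53356283 and 32635814 for miR-217 mimic 1 and 2. Of the markers of the line, VIM was at 27.9 to 36.9 RPKM and CD44 at 13.5 to 26.0 RPKM, ESR1 was at most 0.0756 RPKM, and CDKN2A lay between 10.5 and 13.2 RPKM although MDA-MB-231 is generally said to have lost it. EPCAM, listed as low in the line, was at 3.90 to 7.41 RPKM, and the leukocyte marker PTPRC was at 0.351 to 1.25 RPKM with its highest value in miR-217 mimic 2. CDH1, GATA3, ESRP1, GREB1 and PECAM1 were at most 0.433 RPKM. In a principal component analysis, 71.3% of the variance lay on the first axis, along which number 1 was apart from number 2 in both groups. The number and not the transfection was thus the main division among the 4 libraries, and values are given below by number before they are given by treatment.

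The promoters of the 10 genes are shown first because the ER stress elements in them are the sites through which ATF6 and XBP1 are known to act. RefSeq promoter windows on GRCh38.p14, from 250 bases before to 50 bases after a gene's start, were found for all 10 genes and searched on both strands. The ER stress element was searched as the letters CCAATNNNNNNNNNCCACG, and it was present in 6 of the 10 genes and in 0.0916% of the 27305 gene symbols with a window. The 10 were chosen as genes of the unfolded protein response, so these shares are not an independent comparison. In the lines below the capitals mark the fixed letters of the element, and each run is written 5′ to 3′ on the strand that holds the match.
HSPA5, chr9:125241388-125241412, gene strand: tcaCCAATcggcggcctCCACGacg
HSP90B1, chr12:103930213-103930237, gene strand: tgaCCAATcggaaggagCCACGctt
HSP90B1, chr12:103930318-103930342, opposite strand: ccaCCAATcgcgccgcaCCACGcac
CALR, chr19:12938381-12938405, opposite strand: cgaCCAATgatggtcgaCCACGcgt
CANX, chr5:179698775-179698799, gene strand: cggCCAATcttcacactCCACGaag
PDIA6, chr2:10812850-10812874, gene strand: ggaCCAATgagccgcagCCACGgct
XBP1, chr22:28800600-28800624, gene strand: tggCCAATcgcggagggCCACGacc

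The second form of the element, searched as ATTGGNCCACG, was present in HERPUD1 and SDF2L1 and in 0.0696% of the symbols. The core of the ATF4 composite element, searched as TGATGNAA, was present in 4.46% of the symbols, and of the 10 genes only HERPUD1 held it. Of 5 ATF4-related genes named below (ATF4, DDIT3, TRIB3, CHAC1 and ASNS), ASNS and CHAC1 held it. The matches are shown because HERPUD1 is the gene of the set in which both kinds of letters lie in the same window.
HERPUD1, second ER stress element, chr16:56932022-56932038, gene strand: ccgATTGGgCCACGttg
SDF2L1, second ER stress element, chr22:21642111-21642127, opposite strand: ttgATTGGtCCACGctt
HERPUD1, ATF4 element, chr16:56931963-56931976, opposite strand: ggcTGATGcAAccc
ASNS, ATF4 element, chr7:97872466-97872479, gene strand: gcaTGATGaAActt
CHAC1, ATF4 element, chr15:40953259-40953272, opposite strand: gagTGATGcAAcgg
The printed matches of HSP90B1, CANX and PDIA6 lie inside the gene as the table gives it, and those of the other 5 genes of the set lie before it. PDIA4 and DNAJB9 held none of these letters in their windows. A match is a description of the letters only.

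To see whether the ER genes followed the division by number, number 2 was compared with number 1, with 1 library of each treatment on each side. CANX, the membrane-bound lectin chaperone of the ER, and HERPUD1, a membrane protein of ER-associated degradation, rose, and CALR, the soluble lectin chaperone, fell. Thus 2 of the 10 genes were higher and 1 was lower at an adjusted p under 0.05, where 3.34% and 3.71% of all tested genes were called in these directions (limma on log2(RPKM + 1), Benjamini-Hochberg over 13871 genes). Over the 10 genes the log2 fold changes ran from -0.77 to 0.48 with a median of 0.12, beside a median of -0.04 over all tested genes. It was 0.038 without mimic NC 2, and 0.037 with the filter raised to 5 RPKM, which leaves out DNAJB9. The median was 0.23 within mimic NC and 0.02 within miR-217 mimic. The genes of the set therefore differed in both directions between the numbers.

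**Figure D1:**
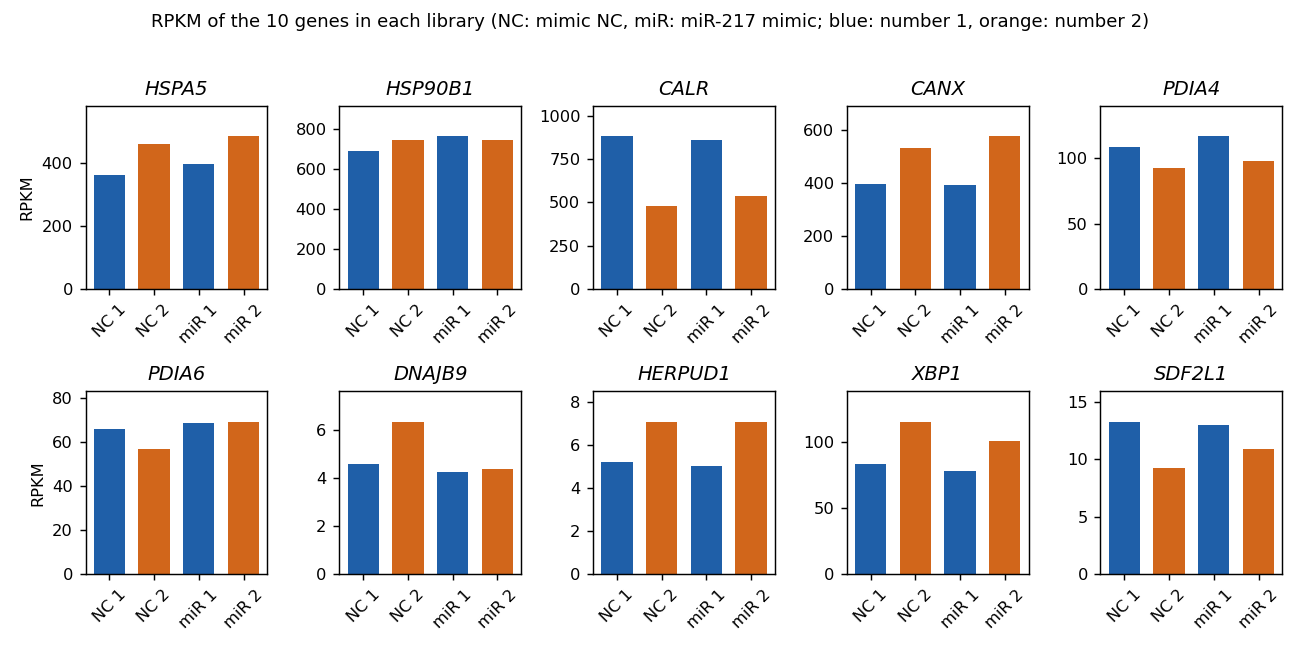
RPKM of each of the 10 genes (vertical axis from 0, its own scale in each panel) in the 4 libraries, with number 1 in blue and number 2 in orange; each bar is 1 library, without an error bar. CALR stands at 858 and 882 RPKM in number 1 and at 481 and 539 RPKM in number 2, whereas HSP90B1 lies between 694 and 765 RPKM throughout.

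HSP90B1 was the most abundant of the 10 genes per length, with a mean of 738 RPKM over the 4 libraries, followed by CALR with 690.0, CANX with 475 and HSPA5 with 426 RPKM. PDIA4 (104 RPKM), XBP1 (94.4 RPKM) and PDIA6 (65.0 RPKM) formed a middle range, and SDF2L1 (11.6 RPKM), HERPUD1 (6.10 RPKM) and DNAJB9 (4.91 RPKM) were lowest. The ranges of HSP90B1 and CALR overlapped across libraries, as did those of CALR with CANX, CANX with HSPA5, PDIA4 with XBP1, and HERPUD1 with DNAJB9. The order of CALR changed with the number: it was first in number 1 and below CANX in number 2. The fewest reads behind a value were the 390 reads of SDF2L1 in miR-217 mimic 2.

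Among the chaperones that bind unfolded chains, HSPA5 (BiP, the HSP70 of the ER and a regulator of the sensors) is the usual reporter of ER stress. HSPA5 lies on chromosome 9 at 125234853 to 125241330, and this and all gene positions below are on GRCh38. It was at 362 RPKM in mimic NC 1, 461 in mimic NC 2, 398 in miR-217 mimic 1 and 485 in miR-217 mimic 2. Both number 2 libraries were above both number 1 libraries, and the groups did not overlap. The ratio of the means was 1.24, with 473 ± 17.0 RPKM in number 2 and 380.0 ± 25.0 RPKM in number 1 (SD, n = 2 each). The log2 fold change was 0.32 (SE 0.09, 95% interval 0.08 to 0.55), being 0.35 within mimic NC and 0.29 within miR-217 mimic, and it did not pass the test (limma, adjusted p = 0.0981). On recovered reads with limma voom HSPA5 passed, with an adjusted p of 0.0322. That fit called 16.3% of all tested genes, beside 7.04% in the main fit.

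HSP90B1 (GRP94, the HSP90 of the ER; chromosome 12, 103930107 to 103953645) was at 694, 748, 765 and 746 RPKM in mimic NC 1, mimic NC 2, miR-217 mimic 1 and miR-217 mimic 2. The numbers overlapped. Its log2 fold change of 0.04 (95% interval -0.20 to 0.28) changed sign between the treatments, at 0.11 within mimic NC and -0.04 within miR-217 mimic. The most abundant gene of the set was the one nearest to 0 in this comparison.

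The lectin chaperones CALR and CANX bind the same sugar signal on newly made glycoproteins, and they differed in opposite directions. CALR (chromosome 19, 12938578 to 12944489) was at 882 RPKM in mimic NC 1, 481 in mimic NC 2, 858 in miR-217 mimic 1 and 539 in miR-217 mimic 2. The mean fell by 41.4%, from 870.3 ± 16.8 RPKM in number 1 to 509.7 ± 41.0 RPKM in number 2 (SD, n = 2 each), and both number 2 libraries were lower than both number 1 libraries. Its log2 fold change was -0.77 (SE 0.10, 95% interval -1.02 to -0.52; limma, adjusted p = 0.0278), with -0.87 within mimic NC and -0.67 within miR-217 mimic. CALR was called under every alternative except without a filter and without either number 1 library.

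CANX (chromosome 5, 179678628 to 179730925) was at 398 RPKM in mimic NC 1, 532 in mimic NC 2, 394 in miR-217 mimic 1 and 577 in miR-217 mimic 2. Both number 2 libraries were higher, with a ratio of the means of 1.40. The log2 fold change was 0.48 (SE 0.09, 95% interval 0.26 to 0.71; limma, adjusted p = 0.0443), with 0.42 within mimic NC and 0.55 within miR-217 mimic. Of this pair CALR was thus the more abundant per length in number 1, and CANX was in number 2.

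PDIA4 and PDIA6 are protein disulfide isomerases, which form and shuffle disulfide bonds. PDIA4 (chromosome 7, 149003062 to 149028641) was at 109, 92.3, 117 and 97.4 RPKM in mimic NC 1, mimic NC 2, miR-217 mimic 1 and miR-217 mimic 2. The number 2 libraries were both below the number 1 libraries. The log2 fold change of -0.25 (SE 0.08; limma, adjusted p = 0.119) did not pass the test. PDIA6 (chromosome 2, 10783391 to 10837977) was at 65.8, 56.6, 68.6 and 69.2 RPKM in the same order. Its numbers overlapped, and the difference was -0.21 within mimic NC and 0.01 within miR-217 mimic.

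Of the genes tied to XBP1 and to degradation, DNAJB9 (ERdj4, a cochaperone of HSPA5) is among the best known targets of spliced XBP1. DNAJB9 (chromosome 7, 108569568 to 108574850) was at 4.62 RPKM in mimic NC 1, 6.36 in mimic NC 2, 4.25 in miR-217 mimic 1 and 4.39 in miR-217 mimic 2. Only mimic NC 2 stood above the others, and the numbers overlapped. Its log2 fold change was 0.21 (SE 0.16; limma, adjusted p = 0.423), with 0.39 within mimic NC and 0.04 within miR-217 mimic.

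HERPUD1 (chromosome 16, 56932048 to 56944863) was at 5.21 RPKM in mimic NC 1, 7.08 in mimic NC 2, 5.03 in miR-217 mimic 1 and 7.09 in miR-217 mimic 2. Both number 2 libraries were higher, with a ratio of the means of 1.38. The log2 fold change was 0.40 (SE 0.07, 95% interval 0.22 to 0.58; limma, adjusted p = 0.0442), with 0.38 within mimic NC and 0.42 within miR-217 mimic. The standard error of HERPUD1 was the smallest of the 10 genes on the log2(RPKM + 1) scale, which shrinks differences at low values. With a pseudocount of 0.1 its log2 fold change was 0.46.

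XBP1 itself (chromosome 22, 28794555 to 28800597) was at 83.6 RPKM in mimic NC 1, 115 in mimic NC 2, 78.3 in miR-217 mimic 1 and 101 in miR-217 mimic 2. Both number 2 libraries were higher, with a ratio of the means of 1.33. The log2 fold change of 0.41 (SE 0.10, 95% interval 0.16 to 0.66) missed the threshold (limma, adjusted p = 0.0685), with 0.46 within mimic NC and 0.36 within miR-217 mimic. XBP1 passed with limma voom on recovered reads (adjusted p = 0.0217), a fit in which 16.3% of all tested genes were called. IRE1 acts on XBP1 by cutting a short intron of 26 bases out of the mRNA, shown here because its removal, and not the level of the gene, marks the active form.
XBP1 intron, chr22:28796124-28796149 on GRCh38, exon 4 of an annotated form in GENCODE 29, intron in capitals: agCACTCAGACTACGTGCACCTCTGCAGca
The RPKM of XBP1 adds up the cut and uncut forms, and so its splicing was not measured. SDF2L1 (chromosome 22, 21642261 to 21644298), which works with HSPA5 and its cochaperones, was at 13.3, 9.26, 13.0 and 10.9 RPKM in mimic NC 1, mimic NC 2, miR-217 mimic 1 and miR-217 mimic 2. It was lower in both number 2 libraries, and its log2 fold change of -0.36 (SE 0.10; limma, adjusted p = 0.0865) did not pass the test.

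By a looser rule, which asks for an unadjusted p under 0.05 in limma together with a log2 difference of 0.32 or more up or down, CANX, HERPUD1 and XBP1 were higher and CALR and SDF2L1 were lower. HSPA5, at 0.315, was just short of that difference. These 3 and 2 of the 10 genes stand beside 7.81% of all tested genes higher and 11.5% lower by the same rule. The libraries of both numbers did not overlap for 7 of the 10 genes, 4 higher and 3 lower in number 2, beside 62.4% of all tested genes. The difference had the same sign within mimic NC and within miR-217 mimic for 8 of the 10, beside 10445 of the 13871 tested genes. Among the 10 the exceptions were HSP90B1 and PDIA6. With 2 libraries on each side the smallest two-sided p of an exact permutation test is 0.333, so the calls rest on the spread that limma pools over genes. When the filter was dropped and 32955 genes were tested, none of the 10 was called in limma. An unadjusted p under 0.05 was found for 7 of the 10 in that limma fit, beside 5645 of the 32955. Without mimic NC 1, none of the 10 genes was called at an adjusted p under 0.05 (limma; 4 had an unadjusted p under 0.05), and the adjusted p was 0.238 for CALR, 0.355 for CANX and 0.321 for HERPUD1. Without miR-217 mimic 1, none was called either (3 had an unadjusted p under 0.05), with 0.201, 0.326 and 0.322 in limma for the same genes. In those fits the log2 fold changes stayed close, at -0.75 and -0.79 for CALR, and few genes of any kind were called, 4 higher and 5 lower of 13871 without mimic NC 1, 6 and 7 without miR-217 mimic 1, and 1 and 2 of 32955 without the filter. The loss of the calls was thus shared by nearly all genes called with 4 libraries. Without miR-217 mimic 2, 6 of the 10 genes were called beside 12.7% of all tested genes, and without mimic NC 2, 5 were called beside 28.3%.

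**Figure D2:**
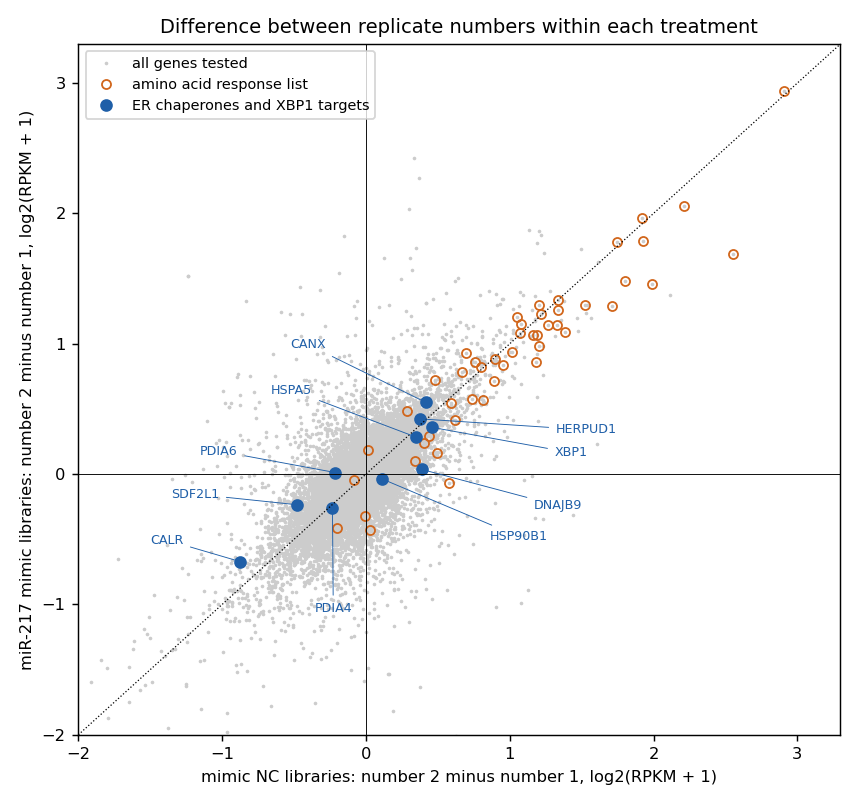
Difference between number 2 and number 1 in log2(RPKM + 1) within mimic NC (horizontal axis) and within miR-217 mimic (vertical axis); each point is 1 tested gene, the dotted line is equality, and 15 genes lie outside the axes. The 10 ER genes in blue lie between -0.87 and 0.55 and the amino acid response genes, open orange circles, reach 2.94.

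Several other measures also differed between the numbers. Both number 2 libraries were smaller than both number 1 libraries. Of the markers of the line, CD44 was higher in number 2 (17.3 and 26.0 RPKM) than in number 1 (13.5 and 14.6 RPKM), as was AXL (8.12 and 8.71 against 6.27 and 6.23 RPKM). CAV1 was lower in number 2 (5.17 and 5.35 against 7.92 and 7.75 RPKM), as were CDH1 (0.232 and 0.169 against 0.433 and 0.364 RPKM), CDKN2A (11.5 and 10.5 against 13.2 and 12.8 RPKM) and ESR1 (0.0294 and 0.0585 against 0.0697 and 0.0756 RPKM). VIM, EPCAM and the markers of other cells overlapped between the numbers. A split by number was common, since 62.4% of all tested genes did not overlap. CDH1 and ESR1 lay under the filter of 1 RPKM, where values are uncertain. In these bulk libraries a change in a fraction of the cells cannot be told apart from a change in every cell. The part of depth or of the makeup of the cultures in the differences of the 10 genes was not tested.

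Because the comparison bears on an amino acid response, ATF4 and transcripts described as its targets, 51 in all, were set beside the ER genes, and 48 of them passed the filter. Of the 48, 37 rose in number 2 and 0 fell at an adjusted p under 0.05 in limma, beside 3.34% and 3.71% of all tested genes. An unadjusted p under 0.05 was found for 41 in limma, beside 4184 of the 13871 tested genes. Of the 48, 43 lay higher and 3 lay lower without overlap between the numbers, beside 62.4% of all tested genes without overlap. The list had a median log2 fold change of 1.00. The median was 1.03 within mimic NC and 0.93 within miR-217 mimic. ATF4 was at 54.4 and 57.4 RPKM in number 1 and at 123 and 121 RPKM in number 2 (log2 fold change 1.11; limma, adjusted p = 0.0104). ASNS, the asparagine synthetase, was at 2.56 and 3.35 RPKM in number 1 and at 15.5 and 17.1 RPKM in number 2. CHAC1, which degrades glutathione, was at 0.369 and 0.428 RPKM in number 1 and at 4.19 and 3.93 RPKM in number 2. Each of these transcripts differed by more than any of the 10 ER genes on the log2(RPKM + 1) scale.

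DDIT3 (CHOP) and TRIB3, which are induced through ATF4 in ER stress as well as in amino acid shortage, rose too. DDIT3 went from 7.40 and 6.87 RPKM to 30.8 and 29.8 RPKM, a log2 fold change of 1.94 (limma, adjusted p = 0.00409). TRIB3 went from 2.24 and 1.86 RPKM to 8.32 and 6.01 RPKM, a log2 fold change of 1.41 (limma, adjusted p = 0.0231). The largest difference of the list was in STC2, a secreted glycoprotein hormone, at 2.92, and the lowest was in ALDH18A1, an enzyme of proline synthesis, at -0.31 (limma, adjusted p = 0.0972). TARS, a threonyl-tRNA synthetase and the most abundant of the list, had a log2 fold change of 0.90. The list holds members of the PERK arm of ER stress and was chosen with results of these libraries known, and so its count is not independent evidence. Without mimic NC 1 only 3 of the 48 were called, and without miR-217 mimic 1 only 6.

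The genes of the sensors and of their processing did not pass the test. Of 7 such genes 6 were tested, and 0 were called in either direction in limma, beside 7.04% of all tested genes. An unadjusted p under 0.05 was found for 2 in limma, beside 4184 of the 13871 tested genes, and 0 passed the looser rule. EIF2AK3, which encodes PERK, was at 7.73, 6.86, 6.88 and 5.72 RPKM in mimic NC 1, mimic NC 2, miR-217 mimic 1 and miR-217 mimic 2. For EIF2AK3 the numbers differed by -0.19 on the log2 scale (limma, adjusted p = 0.303). ATF6 was at 6.18, 7.82, 6.69 and 7.49 RPKM in the same order, the highest fold change of the list at 0.22 (limma, adjusted p = 0.142). ERN1, which encodes IRE1, fell under the filter, at 0.545 and 0.502 RPKM in number 1 and 1.10 and 0.976 RPKM in number 2, and it was not tested. The lowest was MBTPS1, the protease that cleaves ATF6, at -0.29, and RTCB, the ligase that joins cut XBP1, was the most abundant, at 34.0 to 36.3 RPKM and a log2 fold change of -0.01. The level of a sensor's mRNA does not measure its activity.

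Of 31 tested genes of ER folding outside the set, 2 rose and 2 fell at an adjusted p under 0.05 in limma. Over all tested genes 3.34% rose and 3.71% fell. The median log2 fold change of the 31 was 0.03. FKBP7, a prolyl isomerase of the ER and the lowest of the list, was at 4.72 and 4.80 RPKM in number 1 and at 2.90 and 1.97 RPKM in number 2 (log2 fold change -0.76; limma, adjusted p = 0.0498). The highest, the cochaperone DNAJC1, had 0.64 and missed the threshold (limma, adjusted p = 0.0537). The other called genes, named after their values were seen, were the disulfide reductase DNAJC10 (0.52) and the HSP70-like chaperone HYOU1 (0.39), which rose, and CRELD2 (-0.49), which fell. PPIB, the most abundant, lay at 252 to 279 RPKM with a log2 fold change of -0.10.

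ER-associated degradation was described by 22 tested genes, of which 0 were called in limma, with a median of 0.02. An unadjusted p under 0.05 was found for 6 of the 22 in limma, beside 4184 of the 13871 tested genes. By the looser rule 3 were higher and 1 was lower, beside 7.81% and 11.5% of all tested genes. AUP1 was highest at 0.36, VCP, the ATPase that pulls proteins out of the ER membrane, was lowest at -0.40, and OS9, the most abundant, had 0.19. Of 34 genes of translocation into and export from the ER, 11 had an unadjusted p under 0.05 in limma, beside the same 4184 of 13871. Their median was 0.04. At an adjusted p under 0.05 in limma 1 rose and 0 fell, beside 3.34% and 3.71% of all tested genes. The gene that rose was SEC63, which links the translocon to HSPA5. SEC63 was at 35.5 and 34.5 RPKM in number 1 and 62.5 and 63.1 RPKM in number 2, a log2 fold change of 0.83 (limma, adjusted p = 0.0146). SEC23A, a coat protein of export vesicles, was lowest at -0.40, and TMED2, the most abundant, had 0.08. Outside the ER, 1 of 14 heat shock genes rose and 3 fell at an adjusted p under 0.05 in limma, beside 3.34% and 3.71% of all tested genes. The 14 had a median log2 fold change of -0.38. By the looser rule 1 of the 14 was higher and 8 were lower, beside 7.81% and 11.5% of all tested genes. The mitochondrial HSPA9 (0.84) rose. HSPA1A (-0.77) fell, as did, named after their values were seen, HSPB1 (-0.69) and HSPA1B (-0.65). The most abundant of that list, HSP90AB1, had -0.17. HSPA1A and HSPA1B are near-identical copies, so their split of reads is uncertain.

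**Figure D3:**
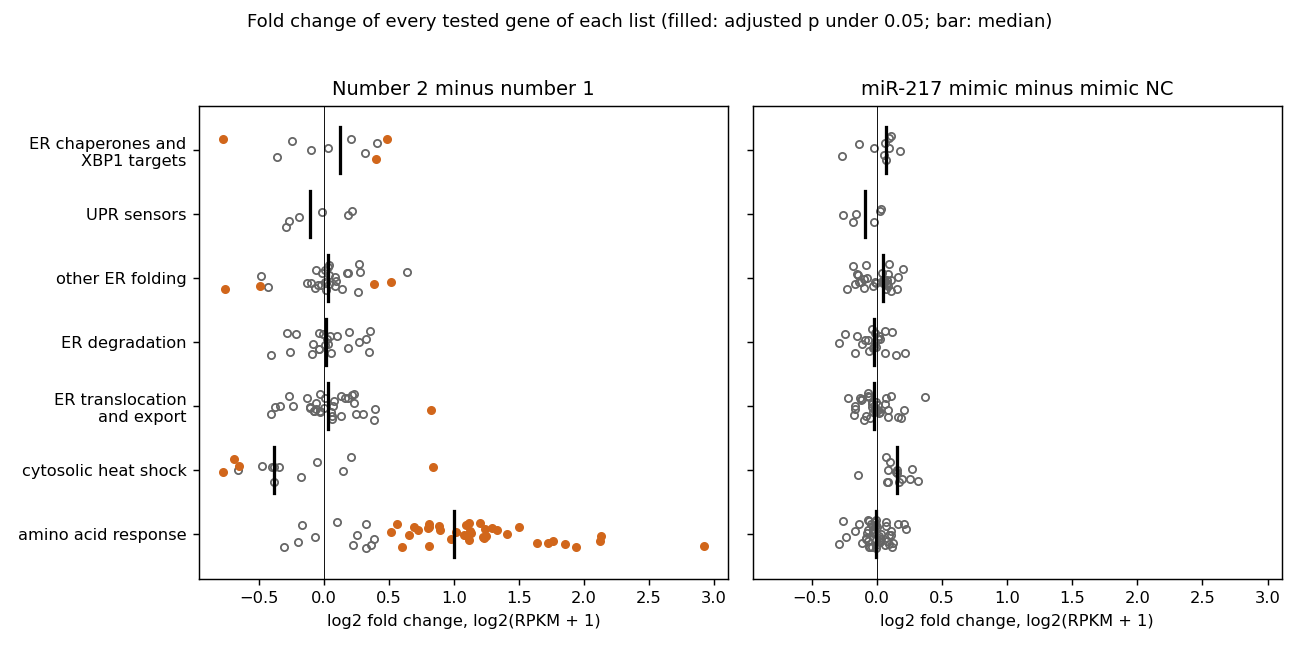
log2 fold change on the log2(RPKM + 1) scale (horizontal axis) of every tested gene of 7 lists (vertical axis), for number 2 minus number 1 on the left and miR-217 mimic minus mimic NC on the right; filled points have an adjusted p under 0.05 in limma, vertical bars are medians, and points are spread vertically for display. On the left the median is 1.00 for the amino acid response and 0.12 for the 10 ER genes, and on the right all points are open.

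To see whether miR-217 altered the ER genes, miR-217 mimic was compared with mimic NC over both numbers. None of the 10 genes was called in either direction (limma, every adjusted p = 1.00; 0 had an unadjusted p under 0.05, also with limma voom), where 0% of all tested genes were called higher and 0% lower and 165 of 13871 had an unadjusted p under 0.05. By the looser rule 0 of the 10 were higher or lower, beside 0.476% of all tested genes higher and 0.67% lower. The log2 fold changes ran from -0.27 to 0.17, with 7 above and 3 below 0. Their median was 0.07, beside -0.02 over all tested genes, and it was -0.02 within number 1 and 0.07 within number 2. A change by the mimic was therefore not detectable in this fit. Number was not a term in it, so the difference between the numbers counts as spread and widens the intervals of genes split by number. The intervals below are those of this fit.

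The intervals were narrower for genes whose values lay close between the numbers. For HSP90B1 the difference between miR-217 mimic and mimic NC was 0.07 with a 95% interval from -0.32 to 0.46, and for HSPA5 it was 0.10 with an interval from -0.42 to 0.62. For CALR, which was split by number, it was 0.06 with an interval from -0.94 to 1.07. Within the numbers these were 0.13 and 0.07 for HSPA5, 0.14 and -0.00 for HSP90B1, and -0.04 and 0.16 for CALR, for number 1 and number 2. CANX was at -0.01 within number 1 and 0.12 within number 2, PDIA4 at 0.10 and 0.08, HERPUD1 at -0.04 and 0.00, XBP1 at -0.09 and -0.19, and SDF2L1 at -0.03 and 0.21. The sign was shared by both numbers for 5 of the 10 genes, beside 8254 of the 13871 tested genes. The 5 were HSPA5, PDIA4, PDIA6, DNAJB9 and XBP1.

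The libraries of the groups did not overlap for 2 of the 10 genes, beside 23.2% of all tested genes. DNAJB9 was lower with the mimic, at 4.25 and 4.39 RPKM against 4.62 and 6.36 RPKM in mimic NC, a ratio of the means of 0.787. Its log2 fold change was -0.27 (SE 0.17, 95% interval -0.71 to 0.16), with -0.10 within number 1 and -0.45 within number 2, and the wider difference was in the number whose control library held the highest value, 6.36 RPKM. PDIA6 was higher, at 68.6 and 69.2 RPKM against 65.8 and 56.6 RPKM, a log2 fold change of 0.17 (SE 0.14, 95% interval -0.19 to 0.53). Its difference was 0.06 within number 1 and 0.28 within number 2. Both 95% intervals crossed 0.

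**Figure D4:**
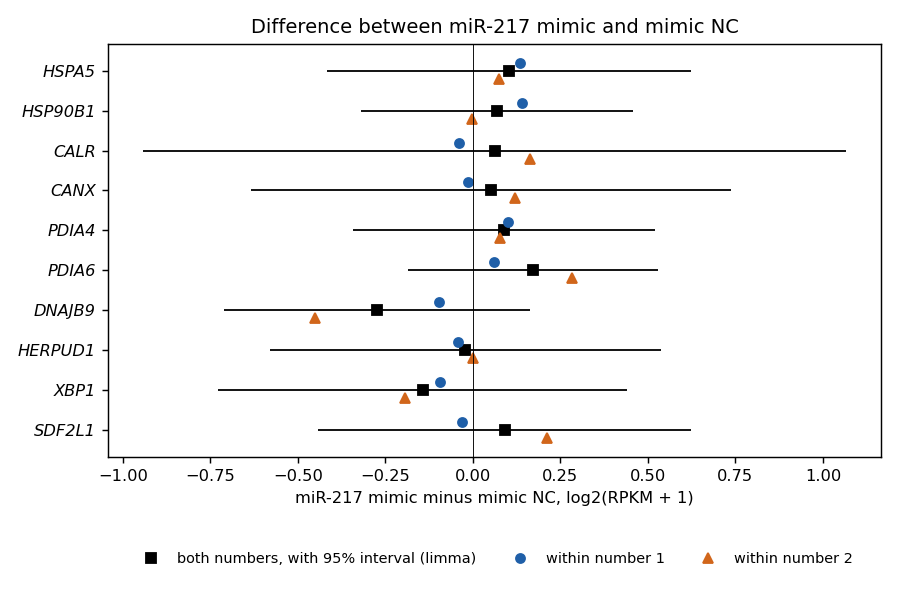
Difference between miR-217 mimic and mimic NC in log2(RPKM + 1) (horizontal axis) for the 10 genes (vertical axis); black squares are the fit over both numbers with its 95% interval (limma), and blue circles and orange triangles are the differences within number 1 and number 2, each from 1 library per group. All 10 intervals cross 0, from the narrowest in PDIA6 (-0.19 to 0.53) to the widest in CALR (-0.94 to 1.07).

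None of the other lists held a called gene between miR-217 mimic and mimic NC (limma; every count 0, and 1 gene in all had an unadjusted p under 0.05). That gene was DDOST, a subunit of the oligosaccharyl transferase, at 18.8 and 17.1 RPKM in mimic NC and 22.9 and 24.1 RPKM with the mimic (log2 fold change 0.37; limma, adjusted p = 1.00). In the amino acid response the median was -0.01, with SLC1A5 highest at 0.22 and TRIB3 lowest at -0.29, and the groups overlapped for all 48 tested genes. The medians were -0.09 for the sensors, 0.04 for ER folding, -0.02 for ER degradation, -0.02 for translocation and export, and 0.15 for the heat shock genes. The extremes of these lists were ATF6B (0.03) and MBTPS1 (-0.27), FKBP11 (0.20) and DNAJC1 (-0.23), AUP1 (0.22) and SEL1L (-0.30), SEC61B (-0.23), and HSPA8 (0.31) and DNAJB1 (-0.15).

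The mimic acts through the seed of miR-217, and it is shown to let the sites in the 10 genes be read. The mature hsa-miR-217-5p lies on chromosome 2 at 55983020 to 55983042 on the minus strand of GRCh38.p14, and bases 2 to 8, the seed, are in capitals.
hsa-miR-217-5p: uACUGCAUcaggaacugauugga
The reverse complement of the seed, ATGCAGT, was present in the longest 3′ untranslated region of 1 of the 10 genes, beside 14.5% of 9911 tested genes with such a region. That gene was HERPUD1, with its site 497 bases after the stop codon. HERPUD1 was at 5.21 and 7.08 RPKM with mimic NC and at 5.03 and 7.09 RPKM with miR-217 mimic. Its log2 fold change was -0.02 with a 95% interval from -0.58 to 0.54. The libraries of the groups interleaved, and each mimic library stood next to the control library of its own number.

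Some of the 10 genes share exon bases with a neighbour, and the strand setting of the counting was not given in the sources used here. Of the length of PDIA6 25.2% is shared with ATP6V1C2 on the other strand, and of CALR 9.95% with CTC-425F1.4 on the other strand. CTC-425F1.4 was at 105 and 105 RPKM in number 1 and at 48.6 and 51.9 RPKM in number 2, and so it was lower in the same libraries as CALR. ATP6V1C2 was at 7.83 to 9.78 RPKM. DNAJB9 shares 6.45% of its length with THAP5 and PNPLA8 on the other strand, and both had levels at or above its own in every library, at 5.90 to 7.55 RPKM and 6.03 to 6.55 RPKM. Without a strand setting reads of the shared bases cannot be told apart, and the values of PDIA6, CALR and DNAJB9 are uncertain to that extent. For HSP90B1 the shared part was 4.82% and for CANX 2.41%, and HSPA5, PDIA4, HERPUD1, XBP1 and SDF2L1 shared none.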

How the data were processed

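RNA-seq of 4 MDA-MB-231 libraries, 2 with mimic NC and 2 with miR-217 mimic, was analysed from a single table, with the group and number of each library as labelled. The labels say only control for the mimic NC group, and the name mimic NC is the study's. The authors deposited RPKM, that is, reads per gene scaled by gene length and by the reads on all listed genes. The submitters' processing notes name Trimmomatic 0.36, featureCounts, Subread 1.5.1, edgeR 3.12.1 and hg38. The test for differential expression and the strand setting were not given in the sources used here. Reads were recovered from RPKM and gene length, and 100% of nonzero values were whole within 0.05 read.

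The 13871 genes whose mean RPKM reached 1 were tested on log2(RPKM + 1), two-sided, by limma 3.58.1 (R 4.3.3; lmFit, then eBayes with its trend option), with Benjamini-Hochberg adjustment over all of them. A fold change on this scale understates that of low genes. The fits were tried on simulated counts with planted changes. In the simulated comparison of treatments the numbers did not differ, unlike in these libraries, so it does not show how that fit performs here. Treatment was not a term in the comparison of numbers, and number was not a term in the comparison of treatments. As alternatives, the pseudocount was set to 0.1, the filter was dropped or raised to a mean RPKM of 5, and the remaining ones were centring on the median, limma voom on recovered reads, a replicate block, and leaving out each library. Voom together with the block, and the alternatives to the count of amino acid response genes, were added after seeing the data. The 10 genes and all lists were chosen with earlier results of these data known. Named genes were the 10, the sensors ERN1, EIF2AK3 and ATF6, ATF4 with DDIT3, TRIB3, CHAC1 and ASNS, CDKN2A, and the highest, lowest and most abundant gene of each other list in each comparison. Gene positions are those of the table, on GRCh38. Promoters and the microRNA are from RefSeq (GRCh38.p14), and untranslated regions and the XBP1 intron from GENCODE 29. Plots were made with matplotlib 3.10.9.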

Additional observations from a re-analysis of the deposited data

How the results depend on the processing

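Of the 10 ER genes, 3 were called between the numbers. No gene was called without a filter (0; 32955 genes tested), 5 were with limma voom on recovered reads, and 7 with limma voom and a replicate block, the last chosen after seeing the data. The share called over all genes moved too, from 7.04% to 16.3% with voom and 23.6% with voom and the block. With the replicate block in the limma fit 2 were called, CALR and XBP1, and CANX and HERPUD1 just missed (limma, adjusted p = 0.0504 and 0.0511). The deviations of libraries with the same number correlated at 0.680 across genes, but the labels do not say that a number pairs them. Leaving out 1 library, which leaves the treatments unequal between the numbers, gave 0 to 6 called genes, 3 to 6 past the looser rule and a median of 0.038 to 0.16, and it took the count of amino acid response genes to 3 to 43 (37 with all libraries, 1 with no filter). Single log2 fold changes changed sign only when a library was left out, in HSP90B1 (-0.034 to 0.11), PDIA6 (-0.24 to 0.042) and DNAJB9 (-0.013 to 0.44), none of them called.

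Between miR-217 mimic and mimic NC, 0 of the 10 genes were called by limma under every alternative. With limma voom and the replicate block 1 of the 10 had an unadjusted p under 0.05, beside 1261 of the 13871 tested genes. Leaving out 1 library moved the median from 0.07 to between -0.028 and 0.076. It turned the sign in HSPA5 (-0.069 to 0.28), CALR (-0.38 to 0.50), CANX (-0.22 to 0.33), PDIA4 (-0.040 to 0.22), HERPUD1 (-0.23 to 0.19), XBP1 (-0.37 to 0.086) and SDF2L1 (-0.15 to 0.33). Centring turned HERPUD1 from -0.02 to 0.0047. The cause was not tested, but each such fit leaves the numbers unequal between the treatments.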
